A study of Mus musculus and Homo sapiens with 12 samples.

Results

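The genes of the heterogeneous nuclear ribonucleoproteins (hnRNPs), the serine/arginine-rich (SR) proteins and their close partners were followed in blood progenitors with a knockout (mouse) or knockdown (human) of the RNA helicase DDX21. Members were chosen by symbol: every gene named HNRNP or SRSF plus letters or digits, together with THRAP3, BCLAF1, TRA2A, TRA2B, PTBP1, PTBP3, RBMX, SRRM1, SRRM2, SON and PRRC2C. The rule gave 44 genes, of which 42 were found among 55487 mouse genes and all 44 among 78932 human genes. SRSF8 and HNRNPA1L3 were found in the human table only. The 4 human symbols with a pseudogene suffix (HNRNPA1P49, HNRNPCP7, HNRNPH1P1 and HNRNPKP4) were left out, and these held between 6 and 99 counts per library. All members passed the filter on low counts in their experiment.

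Poly(A) RNA was sequenced in 12 libraries, 3 in each of 4 groups. The mouse groups were LK cells (lineage-negative, Kit-positive live progenitors) taken by sorting from the fetal liver of embryos at E13.5 (days of embryonic development). Both mouse genotypes carried the floxed allele, as Ddx21f/f in the wild type (WT) and Vav-Cre; Ddx21f/f in the conditional knockout (cKO). Vav drives Cre mainly in blood cells. The human groups were blood stem cell-like cells made by differentiating 1 embryonic stem cell line, H1. They received a lentivirus with mCherry that expressed either shNC, the control hairpin, or shDDX21, which targets DDX21. Cells positive for CD34, CD45, CD43 and the hairpin vector were sorted 2 days after transduction. The labels do not say that the 3 libraries of a group came from separate embryos, litters or cultures, so the p-values measure the spread between these libraries, which may be technical.

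SR proteins bind exons and help the spliceosome define them, through RNA recognition motifs and a tail of arginine and serine repeats that kinases phosphorylate. hnRNPs coat nascent RNA and often act against exon inclusion, and many also work in export, stability and translation. Several members control their own level through alternative exons that send the transcript to nonsense-mediated decay (NMD), the pathway that removes messages with an early stop codon. DDX21 is an RNA helicase of the nucleolus with roles in ribosome production and transcription.

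The 12 libraries held 15289510 to 23898130 counts. Ddx21 itself was at 19.7% of the WT mean in cKO and at 14.5% of the shNC mean in shDDX21, and no perturbed library overlapped a control. Mouse replicates were less alike than human ones, with a biological coefficient of variation of 10.5% against 2.23%. Between WT replicates 1 and 2 the chi-square per degree of freedom was 1.86, against 13.8 and 9.64 for either with replicate 3. Between cKO libraries it was 22.0 for replicates 1 and 2, 6.49 for 1 and 3 and 6.97 for 2 and 3. Kit and Cd34 were present in the mouse libraries (361.9 and 133.6 CPM in WT, 316 and 215 in cKO, CPM being edgeR's normalised counts at a fixed library size). The 10 blood progenitor markers, of which 2 were higher and 3 lower, summed to 2060 to 2263 CPM in WT and 1857 to 2094 in cKO, and Mpo among them was at 699 and 399.5 CPM. Of the 8 hepatocyte markers, all had a signal in mouse libraries, 4 were tested and all 4 were higher. Summed over the list they reached 1.43 to 1.99 CPM in WT and 29.4 to 33.3 CPM in cKO. With WT means as low as 0.42 CPM for Alb and 0.045 for Apob, a marker could pass the low-count filter through the cKO libraries alone. That all 4 tested were higher was therefore partly set by the filter. Erythroid markers summed to 990.2 to 1107 CPM in WT and 743 to 839 in cKO, and endothelial markers to 78.8 to 99.3 and 117 to 137. In the human experiment the 9 progenitor markers paired with a symbol (3 higher, 6 lower; MPO at 162.7 and 31.5 CPM) summed to 2451 to 2496 CPM in shNC and 2164 to 2194 in shDDX21, the 7 endothelial ones to 1823 to 1875 and 1576 to 1597, and the 8 erythroid ones to 876 to 889.6 and 967 to 991. LIN28A and DPPA4, the pluripotent stem cell markers paired with a symbol, summed to 229 to 238 CPM in shNC and 277 to 288 in shDDX21. Macrophage markers summed to 7.79 to 8.60 CPM in WT and 7.65 to 9.01 in cKO, with C1qc at 0 in every mouse library, and the 4 human ones to 47.2 to 54.9 CPM in shNC and 34.5 to 36.4 in shDDX21. The part of these other cell types in the results was not tested. In bulk RNA, fewer cells of a type and less RNA per cell cannot be told apart.

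The promoters of the mouse members were read from RefSeq (GRCm38.p6), which had an entry for 39 of the 42. Shown are the 250 bases before the start of Rbmx, the only well-expressed member that was higher in cKO, and of 3 members that were lower there, chosen among those whose window holds no exon base in GENCODE M21. Capitals mark CCAAT, the GC-box letters GGGCGG, and TGACG (the core of the cyclic AMP response element), on either strand. A match on the other strand reads as ATTGG for the first, as CCGCCC for the second and as CGTCA for the last. Rbmx lies at chrX:57393037-57393286, Hnrnpab at chr11:51606882-51607131 and Tra2b at chr16:22266006-22266255, all on the minus strand, and Hnrnpr at chr4:136310692-136310941 on the plus strand.
Rbmx: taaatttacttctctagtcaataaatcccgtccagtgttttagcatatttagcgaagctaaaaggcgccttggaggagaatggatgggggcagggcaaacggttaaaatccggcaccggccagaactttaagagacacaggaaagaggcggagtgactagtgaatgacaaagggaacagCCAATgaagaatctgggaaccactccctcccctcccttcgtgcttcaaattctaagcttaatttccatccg
Hnrnpab: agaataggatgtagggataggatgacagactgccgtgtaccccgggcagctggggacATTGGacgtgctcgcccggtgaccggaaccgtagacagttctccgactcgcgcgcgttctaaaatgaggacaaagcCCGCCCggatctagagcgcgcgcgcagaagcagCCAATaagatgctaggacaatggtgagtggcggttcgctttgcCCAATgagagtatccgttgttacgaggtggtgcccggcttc
Tra2b: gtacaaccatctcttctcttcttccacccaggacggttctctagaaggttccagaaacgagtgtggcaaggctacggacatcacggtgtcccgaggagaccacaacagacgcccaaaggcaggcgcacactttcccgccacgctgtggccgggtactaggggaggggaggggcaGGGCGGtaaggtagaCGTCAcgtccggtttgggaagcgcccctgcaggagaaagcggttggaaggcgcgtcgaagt
Hnrnpr: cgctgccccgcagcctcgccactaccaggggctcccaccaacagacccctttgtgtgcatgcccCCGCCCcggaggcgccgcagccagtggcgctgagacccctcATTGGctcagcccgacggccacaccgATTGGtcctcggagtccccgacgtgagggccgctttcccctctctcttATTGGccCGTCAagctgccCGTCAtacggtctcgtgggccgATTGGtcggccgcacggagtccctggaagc
The Hnrnpr window held 4 CCAAT matches, 1 of GGGCGG and 2 of TGACG, and the Hnrnpab window 3, 1 and 0. Tra2b had 0, 1 and 1, and Rbmx a single CCAAT and neither of the others. The Rbmx window was also the poorest of the 4 in G and C (46.8%, against 58.4% in Hnrnpab, 60.8% in Tra2b and 68.8% in Hnrnpr). These traits did not follow the calls over the other members, whose windows are not shown. Hnrnph2, lower in cKO, was at 48.4%, Hnrnpa1, not called, at 46.0%, and Srsf12, higher in cKO, at 68.0%, beside a member median of 63.6%. Ptbp1, not called, also held a single CCAAT and neither of the others.

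Member promoters as a whole were rich in CpG. Their median GC content was 63.6%, against 52.0% over all 27025 promoters in the table, and their median number of CpG pairs was 23, against 6. On either strand, GGGCGG was found in 71.8% of member promoters and 32.9% of all promoters, TGACG in 53.8% and 17.9%, and CCAAT in 51.3% and 34.5%. CACGTG was found in 12.8% and 6.05%, CCGGAAG in 15.4% and 7.05%, and TATAAA in 7.69% and 13.0%. TGACGTCA, which contains TGACG, was found in 2.56% of member and 1.62% of all promoters. GGGCGG and TGACG contain CpG, so these shares can move with the CpG content, and a match of letters is not a bound site.

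Members were among the most abundant transcripts of both cell types (see the plot of control levels). Per exon length, their median level in WT was 73.2 FPKM (CPM per kilobase of exon, computed here from the counts), against 4.17 over all 14918 tested mouse genes. In shNC it was 47.2 FPKM, against 2.66 over 20188 human genes. Of the mouse members, 34 of 42 lay above the 90th percentile of tested genes (35.9 FPKM), and of the human members 38 of 44 (19.7 FPKM). HNRNPA1, which binds exonic silencers and also shuttles with mRNA, was the highest member in both species, at 574 FPKM in WT and 243 in shNC. Srsf12 was the lowest in both, and was the only member near the detection limit in the mouse. Across the 42 shared members, Spearman's rho between WT and shNC levels was 0.64, a description across genes, in which all values of a species come from the same 3 libraries and rest on that table's exon lengths. The 42 mouse members summed to 25829, 25688 and 25843 CPM in the WT libraries and 23652, 24352 and 23895 in cKO, so the cKO mean was 92.9% of WT. The 44 human members summed to 17551, 17852 and 17653 CPM in shNC and 14538, 14474 and 14310 in shDDX21, which was 81.7% of shNC. These sums use TMM scaling, under which no perturbed library reached a control. With total counts the mouse groups overlapped, at 24842 to 25706 CPM in WT and 23780 to 25145 in cKO.

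**Figure D1:**
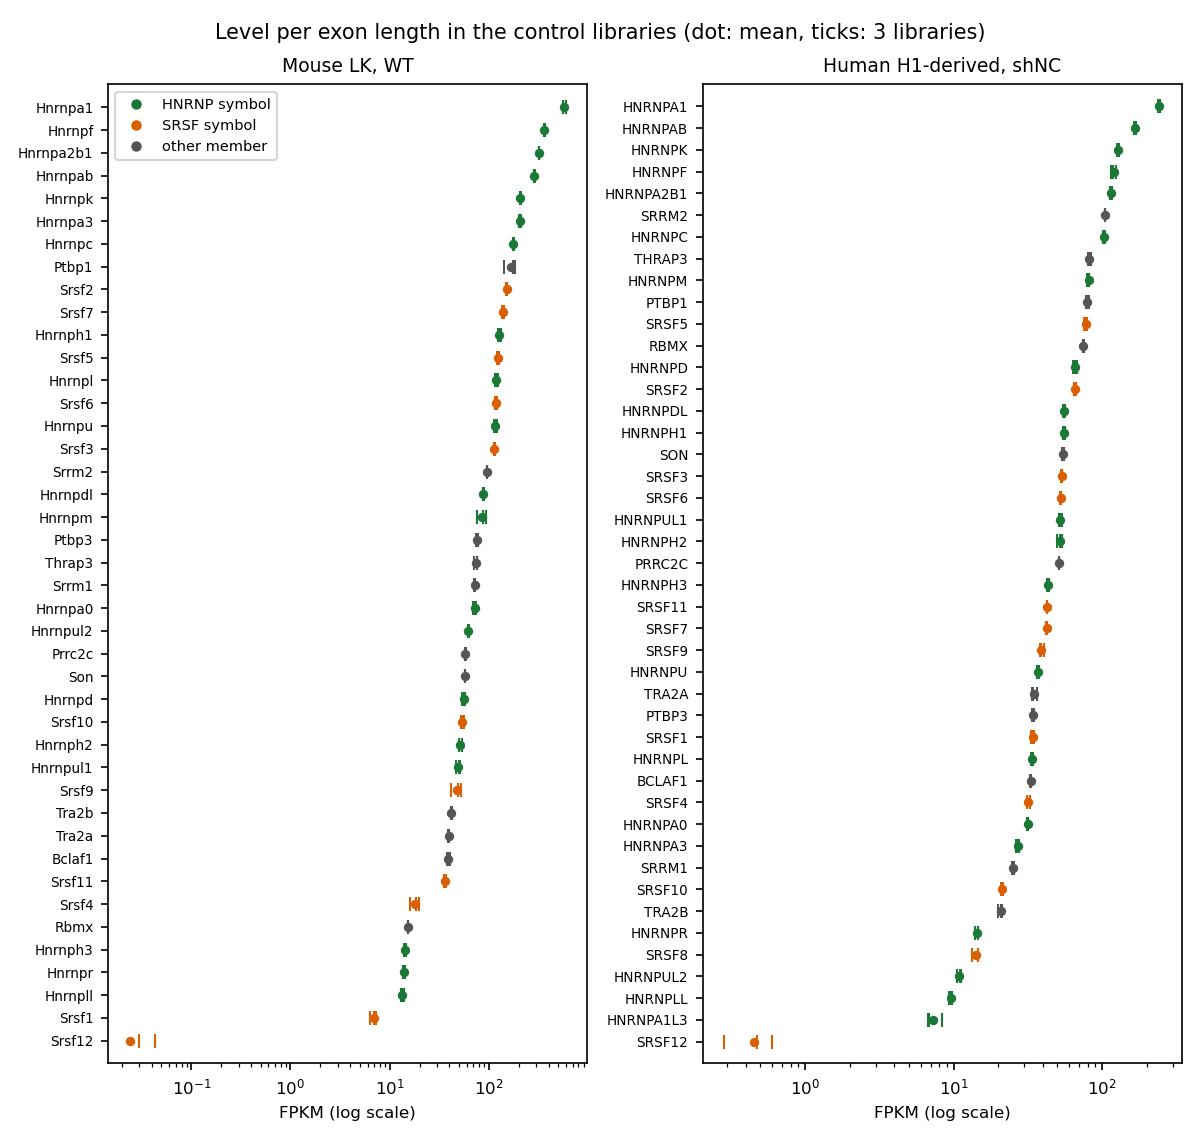
Level of each member in the 3 control libraries of each experiment (x axis: FPKM, log scale; dot: mean of 3; ticks: single libraries). Hnrnpa1 is highest and Srsf12 lowest in both, and 34 of 42 mouse and 38 of 44 human members lie above the 90th percentile of their tested genes.

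In human cells with the DDX21 hairpin, most members were lower. Of 44 tested, 34 were lower in shDDX21, 5 were higher and 5 were not called by edgeR's quasi-likelihood test (Benjamini-Hochberg adjusted p under 0.05 over all tested genes). Among all human genes 52.7% were called, 27.4% lower and 25.3% higher. The members' median log2 fold change was -0.31, against 0.0052 for all genes, and 39 members had groups that did not overlap, 34 with all shDDX21 libraries below and 5 with all above (29.5% and 27.9% of all genes). The 5 increases were SRSF5, HNRNPA1L3, HNRNPA1, PTBP3 and SRRM2, and the 5 without a call were BCLAF1, HNRNPLL, HNRNPUL1, SRSF8 and TRA2B. With upper-quartile factors the calls were 30 lower and 8 higher, beside 23.0% lower and 31.0% higher among all genes. HNRNPH3 and SRSF11, called lower with the smallest changes (-0.067 and -0.062), changed sign there (0.0028 and 0.0070).

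In mouse LK cells from cKO embryos the changes were smaller, and decreases again outnumbered increases. Of 42 tested, 17 were lower in cKO, 2 were higher (Rbmx and Srsf12) and 23 were not called. Of all mouse genes 36.5% were called, 15.8% lower and 20.7% higher. The median over members was -0.12, against 0.00057 over all genes, and 38 of 42 lay below 0. Groups did not overlap for 23 members with cKO below and for 2 with cKO above (21.4% and 27.6% of all genes). The number of mouse calls depended on scaling and on single libraries: with upper-quartile factors 4 members were lower (Hnrnpul1, Srrm1, Srsf2 and Thrap3) and 2 higher, where 9.52% of members and 13.6% of all genes were lower. With total counts 3 were lower (Hnrnpul1, Srrm1 and Srsf2) and 2 higher, where 7.14% of members and 10.8% of all genes were lower (23.9% of all genes higher). The other 13 mouse decreases were lost under both scalings, and that of Thrap3 with total counts. Without WT replicates 1, 2 and 3 the members called lower numbered 5, 6 and 11, and without cKO replicates 1, 2 and 3 they numbered 11, 16 and 6. Of all genes 9.78%, 9.59% and 16.8% were lower in the first 3 of these and 17.8%, 12.2% and 8.92% in the others. Rbmx and Srsf12 stayed higher in each, although Srsf12 passed the low-count filter through the cKO libraries alone. Hnrnpdl, Hnrnpll, Srrm1, Srsf2 and Srsf7 kept their call when any 1 library was left out.

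**Figure D2:**
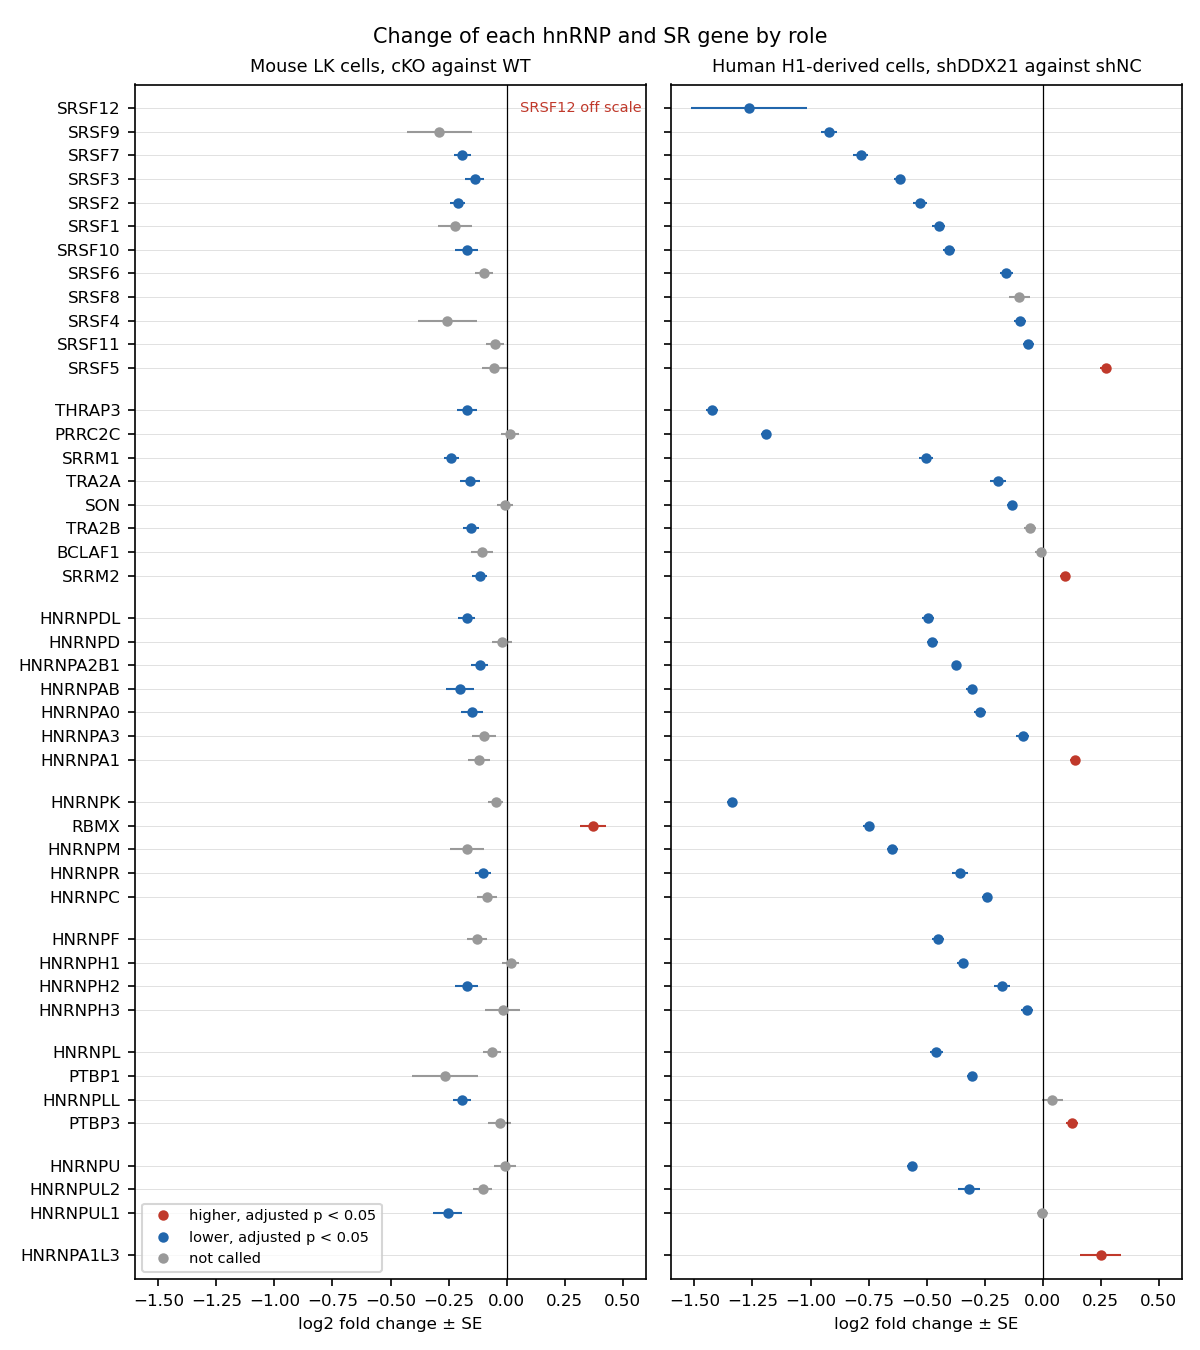
Log2 fold change of each member (point) with its standard error (bar), grouped by role, in mouse cKO against WT (left) and human shDDX21 against shNC (right); colour gives the call at adjusted p under 0.05. Most points lie below 0 on both sides, with 17 of 42 called lower in the mouse and 34 of 44 in the human cells, and the human changes reach -1.42. Srsf12 (2.65 in the mouse) is off scale on the left.

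Among the SR proteins, 10 of 12 were lower and 1 higher in shDDX21 (median -0.43), and 4 of 11 were lower and 1 higher in cKO (median -0.17). Beside the counts of this and each later role stand 27.4% of all genes lower and 25.3% higher in shDDX21, and 15.8% and 20.7% in cKO. SRSF9, a short SR protein, gave 153, 160.2 and 149.9 CPM in shNC and 86.9, 79.1 and 78.2 in shDDX21. All 3 shDDX21 libraries lay below every shNC library, and the change was log2 fold change -0.92, SE 0.036, adjusted p 4.45e-35. The SRSF9 exons share 43.6% of their length with GATC on the opposite strand, so reads of the pair cannot be told apart without strand. Mouse Srsf9 was among the most variable members, with 87.1, 80.2 and 69.0 CPM in WT and 76.6, 52.8 and 64.1 in cKO. The groups overlapped there, with cKO replicate 1 inside the WT range, and the difference was not called (log2 fold change -0.29, SE 0.14, adjusted p 0.149). It was -0.15 without cKO replicate 2, and -0.42 and called without cKO replicate 1 (adjusted p 0.0271).

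SRSF7, an SR protein with a zinc knuckle that also acts in mRNA export, was lower in both species. It was at 170.4, 170.5 and 172 CPM in shNC and 105, 91.0 and 101 in shDDX21, with no overlap (log2 fold change -0.78, SE 0.034, adjusted p 4.44e-32). Mouse Srsf7 was at 488, 477 and 505 CPM in WT and 417, 437 and 435 in cKO, again with every cKO library below every WT library (log2 fold change -0.19, SE 0.038, adjusted p 0.00707). It was not called under upper-quartile or total-count scaling, where its adjusted p reached 0.0953.

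SRSF2, which binds exonic enhancers and is recurrently mutated in myelodysplastic syndromes, fell in both experiments. Mouse Srsf2 (ENSMUSG00000034120; GRCm38 chromosome 11, 116849901 to 116853094, minus strand) was at 449.8, 452 and 445 CPM in WT and 394, 389 and 381 in cKO. Its change of log2 fold change -0.21, SE 0.031, adjusted p 0.00196 was 1 of only 2 mouse decreases, with Srrm1, that were called under all 14 alternatives. In the human cells SRSF2 was at 192, 198 and 197 CPM in shNC and 134, 136 and 137 in shDDX21 (log2 fold change -0.53, SE 0.029, adjusted p 3.00e-26). Its exons overlap those of neighbours on the opposite strand in both genomes, by up to 15.6% with Mettl23 in the mouse and 27.7% with MFSD11 in the human table.

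SRSF10, which represses splicing when it is dephosphorylated, was lower in both as well. The level was 373, 364 and 389 CPM in WT and 317, 353 and 331 in cKO, and the cKO libraries all lay below WT (log2 fold change -0.17, SE 0.049, adjusted p 0.0301), a call lost without WT replicate 1, 2 or 3 or cKO replicate 1 or 3 (adjusted p up to 0.214 over the alternatives). In human cells it was 253, 249.9 and 248 CPM in shNC and 192, 189 and 186 in shDDX21, without overlap (log2 fold change -0.40, SE 0.027, adjusted p 3.46e-22). SRSF3, a small SR protein and an adaptor for export, changed by -0.14 in the mouse (adjusted p 0.0345, up to 0.339 over the alternatives and lost without the same libraries) and by -0.62 in the human cells (adjusted p 1.41e-34).

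SRSF5 went the other way in human cells. It was at 403, 419 and 423 CPM in shNC and 510.5, 502 and 490.3 in shDDX21, all 3 shDDX21 libraries above all 3 controls (log2 fold change 0.27, SE 0.023, adjusted p 3.78e-17). Mouse Srsf5 overlapped between groups, at 486.5 to 508 CPM in WT and 443 to 513 in cKO (-0.052, adjusted p 0.493). The remaining human SR genes ran from SRSF1 (-0.45) through SRSF6 (-0.16) and SRSF4 (-0.098) to SRSF11 (-0.062), all called, and SRSF8 (-0.10, adjusted p 0.0541), which was not.

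SRSF4 and SRSF6 are relatives with long RS tails. Human SRSF4 was at 274, 288 and 274 CPM in shNC and 262, 265 and 253 in shDDX21, and SRSF6 at 259, 259.9 and 254 CPM in shNC and 221, 234 and 240.1 in shDDX21. Both had all shDDX21 libraries below shNC, with adjusted p of 0.000926 and 9.26e-07. The human SRSF4 call was lost with upper-quartile factors and with the gene-length offset (adjusted p up to 0.358 over the alternatives). Mouse Srsf4 was at 69.9, 64.9 and 56.6 CPM in WT and 61.2, 44.3 and 55.0 in cKO, where groups overlapped (log2 fold change -0.25, SE 0.13, adjusted p 0.158; -0.12 to -0.35 when 1 library was left out, without a call). Mouse Srsf6 was at 557, 554 and 577 CPM in WT and 503, 543 and 532 in cKO, with cKO below WT in every library and no call (log2 fold change -0.097, SE 0.04, adjusted p 0.0996).

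SRSF12, an SR-related splicing repressor of low abundance, was called in opposite directions. The WT libraries held 3, 0 and 2 reads, and those of cKO 11, 12 and 13. Summed, 5 counts stood against 36, a ratio of 6.65 after scaling with a 95% exact binomial interval of 2.60 to 21.7 that covers counting error only (adjusted p 0.00928). The mouse gene passed the low-count filter through the cKO libraries alone, where it was high, so its call there is not separate support for an increase. It was not tested when at least 10 counts were required in every library. In human cells the counts were 60, 61 and 34 in shNC and 28, 17 and 22 in shDDX21 (log2 fold change -1.27, SE 0.25, adjusted p 1.14e-05).

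Of the SR-related and speckle proteins, 5 of 8 were lower and 1 higher in shDDX21 (median -0.16), and 5 of 8 were lower in cKO (median -0.14). THRAP3 (ENSG00000054118; hg38 chromosome 1, 36224432 to 36305357, plus strand), an RS-rich protein with roles in transcription and splicing, had the largest human decrease of all members. It was at 382, 399 and 379 CPM in shNC and 147, 144 and 141 in shDDX21. Every shDDX21 library was at less than any control by a wide margin, and the mean was 37.2% of shNC (log2 fold change -1.42, SE 0.027, adjusted p 7.85e-54). Mouse Thrap3 was at 702, 699 and 657 CPM in WT and 630.2, 603 and 595 in cKO, without overlap but with a far smaller change (log2 fold change -0.17, SE 0.041, adjusted p 0.0165). The mouse call was lost without WT replicate 1 or 2 or cKO replicate 3 (adjusted p up to 0.0891 over the alternatives).

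BCLAF1, the closest relative of THRAP3, was called in neither experiment. It was at 311, 318 and 314 CPM in shNC and 309, 317 and 312 in shDDX21. The groups overlapped throughout, and the estimate was log2 fold change -0.0095, SE 0.024, adjusted p 0.772. In the mouse it was at 578, 593 and 628 CPM in WT and 536, 585 and 549 in cKO, also overlapping (log2 fold change -0.11, SE 0.048, adjusted p 0.123). No other shared member was without a call in both. With the gene-length offset Bclaf1 was called lower in the mouse (-0.22, adjusted p 0.00665) and BCLAF1 higher in the human cells (0.059, adjusted p 0.0361), where upper-quartile factors also gave a call (0.060, adjusted p 0.0288).

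PRRC2C (ENSG00000117523; hg38 chromosome 1, 171485530 to 171593511, plus strand), a large intrinsically disordered RNA-associated protein, was at 732, 728 and 729 CPM in shNC and 319, 322 and 317 in shDDX21. The libraries of each group were close together and the groups far apart, with shDDX21 at 43.7% of shNC (log2 fold change -1.19, SE 0.022, adjusted p 1.21e-54). Mouse Prrc2c did not differ between the groups by the test: it was at 918, 929 and 956 CPM in WT and 916, 975 and 941 in cKO, overlapping (log2 fold change 0.015, SE 0.037, adjusted p 0.784).

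SRRM1 and SRRM2, the coactivators of the spliceosome known as SRm160 and SRm300, parted in human cells. SRRM1 was at 204, 199 and 198 CPM in shNC and 141, 139 and 144 in shDDX21, lower in every shDDX21 library (log2 fold change -0.50, SE 0.029, adjusted p 2.88e-25). SRRM2, a scaffold of nuclear speckles, was at 1353, 1365 and 1357 CPM in shNC and 1439, 1469 and 1445 in shDDX21, higher in each shDDX21 library (log2 fold change 0.095, SE 0.018, adjusted p 8.71e-06). In the mouse both were lower. Srrm1 was at 527, 533 and 517 CPM in WT and 453, 438 and 448 in cKO without overlap (log2 fold change -0.24, SE 0.032, adjusted p 0.00130), and Srrm2 at 1218, 1226 and 1240 CPM in WT and 1122, 1139 and 1136 in cKO, likewise (log2 fold change -0.12, SE 0.031, adjusted p 0.0222). The Srrm2 call was lost when WT replicate 1 or 2 or any cKO replicate was left out (adjusted p up to 0.408 over the alternatives).

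The paralogs TRA2A and TRA2B, which bind GA-rich exonic enhancers, changed little. Mouse Tra2a was at 274, 270.3 and 277 CPM in WT and 232, 251 and 253 in cKO and Tra2b at 396, 388 and 380 CPM in WT and 339.7, 356 and 350.3 in cKO. Both had cKO below WT in every library (-0.16, adjusted p 0.0265, and -0.15, adjusted p 0.0133). Neither call held with total counts or without WT replicate 1 or 2, the Tra2a call was also lost without WT replicate 3 or cKO replicate 1 or 2, and the Tra2b call without cKO replicate 3 (adjusted p up to 0.234 and 0.163 over the alternatives). Human TRA2A was at 121, 118 and 128 CPM in shNC and 107, 110.5 and 105 in shDDX21, all shDDX21 libraries below (log2 fold change -0.19, SE 0.034, adjusted p 1.82e-06), and TRA2B at 262, 275 and 279 CPM in shNC and 255, 269 and 262 in shDDX21, where the groups overlapped (log2 fold change -0.055, SE 0.026, adjusted p 0.0748). SON, the other core protein of nuclear speckles, was 0.13 lower on the log2 scale in the human cells (700.2 against 638 CPM) and at 856 and 852 CPM in the mouse, with no call except with the gene-length offset (-0.12, adjusted p 0.0454).

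Among the hnRNPs that bind single-stranded RNA through KH or RRM domains, all 5 of HNRNPC, HNRNPK, HNRNPM, HNRNPR and RBMX were lower in shDDX21 (median -0.65), the largest shift of any role. HNRNPK (ENSG00000165119; hg38 chromosome 9, 83968083 to 83980631, minus strand), a KH protein that binds C-rich RNA and DNA, was at 724, 735 and 715 CPM in shNC and 282, 288 and 291 in shDDX21. The shDDX21 libraries lay tightly together at 39.5% of the control mean (log2 fold change -1.34, SE 0.023, adjusted p 7.09e-57). Mouse Hnrnpk was at 1349, 1328 and 1354 CPM in WT and 1295, 1285 and 1324 in cKO. Its cKO libraries were all below WT, yet by so little that the test made no call (log2 fold change -0.047, SE 0.032, adjusted p 0.288), and the sign turned with total counts (0.019).

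RBMX, also known as hnRNP G, is X-linked in both species and interacts with TRA2 proteins. In the human cells it was at 436, 443 and 438 CPM in shNC and 261, 264 and 258 in shDDX21, every shDDX21 library lower (log2 fold change -0.75, SE 0.024, adjusted p 3.37e-40). In the mouse Rbmx (ENSMUSG00000031134; GRCm38 chromosome X, 57383530 to 57393036, minus strand) was at 66.3, 66.7 and 65.7 CPM in WT and 79.9, 91.2 and 85.8 in cKO. All 3 cKO libraries were higher than all 3 WT libraries (log2 fold change 0.37, SE 0.056, adjusted p 0.00211), and the call was made under all 14 alternatives. Tested X-linked mouse genes as a whole had a median log2 fold change of 0.07. Of these 497 genes 130 were higher and 76 lower, beside 20.7% and 15.8% of all genes. The 9 tested Y-linked genes were mixed, with 5 higher and 2 lower, a median of 0.92 and quartiles of -0.63 and 0.98. The part of the sex of the embryos in this result was not tested.

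HNRNPM was at 456, 460 and 446 CPM in shNC and 298, 284 and 286 in shDDX21, clearly separated (log2 fold change -0.65, SE 0.024, adjusted p 2.98e-36). Mouse Hnrnpm overlapped between groups, at 747, 691 and 606 CPM in WT and 621, 599 and 597 in cKO (log2 fold change -0.17, SE 0.073, adjusted p 0.110). Its change ran from -0.099 without WT replicate 1 to -0.25 without WT replicate 3, where it was called (adjusted p 0.00873), as it was with the gene-length offset (0.0388) and without a low-count filter (0.0475). HNRNPC, which binds U tracts, and HNRNPR fell by 0.24 and 0.36 in the human cells. Of this pair Hnrnpr alone was called in the mouse, by -0.10 (adjusted p 0.0471), and its call was lost in several alternatives (adjusted p up to 0.530).

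**Figure D3:**
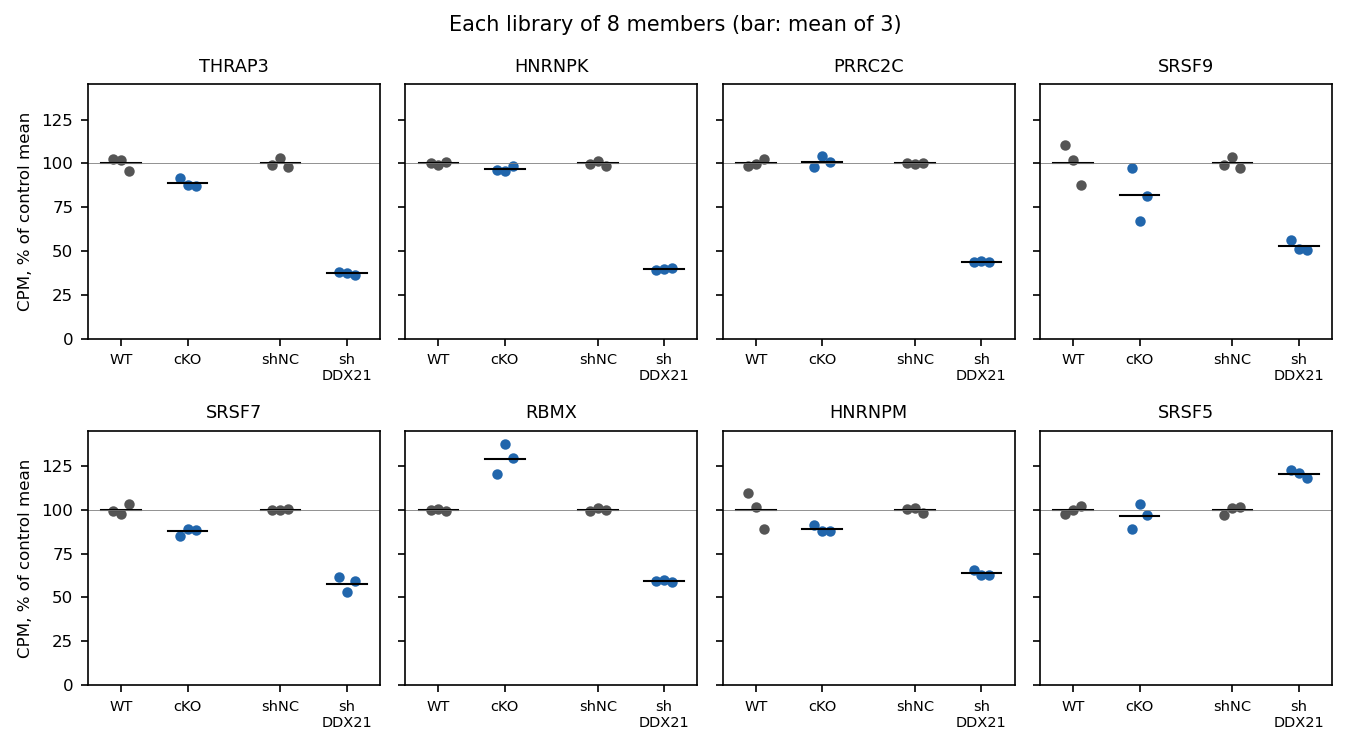
Each library of 8 members as a percent of the control mean of its experiment (points: single libraries; bars: means of 3; y axis from 0). THRAP3, HNRNPK and PRRC2C stand at 37.2%, 39.5% and 43.7% of shNC in human cells, and at 88.9%, 96.8% and 101% of WT in the mouse. Rbmx is higher in cKO and lower in shDDX21.

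The hnRNP A/B and D group comprises abundant proteins with paired RRMs and a glycine-rich tail. In shDDX21 6 of 7 were lower and 1 higher (median -0.31), and in cKO 4 of 7 were lower (median -0.12). HNRNPDL was lower in both: the mouse gene was at 420.2, 417 and 435 CPM in WT and 363, 384 and 382 in cKO, with no overlap (log2 fold change -0.17, SE 0.038, adjusted p 0.0106), and the human gene at 304, 303 and 312 CPM in shNC and 218, 217 and 217 in shDDX21 (log2 fold change -0.49, SE 0.025, adjusted p 5.94e-28). The mouse call was lost with upper-quartile factors and with total counts (adjusted p 0.0908 and 0.145). Hnrnpab was at 789.5, 808 and 794 CPM in WT and 731, 627 and 725 in cKO. Its cKO replicate 2 was the lowest of the set, all cKO libraries lay below WT (log2 fold change -0.20, SE 0.061, adjusted p 0.0384), and the call was lost without WT replicate 1, 2 or 3 or cKO replicate 3 (adjusted p up to 0.122 over the alternatives). Hnrnpab shares 29.1% of its exon bases with Phykpl on the opposite strand. Human HNRNPAB was at 347, 355 and 351 CPM in shNC and 288, 279 and 285 in shDDX21, again without overlap (log2 fold change -0.31, SE 0.024, adjusted p 2.13e-18).

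HNRNPA1 was the exception in human cells, at 1602, 1647 and 1629 CPM in shNC and 1862, 1772 and 1733 in shDDX21. All shDDX21 libraries lay above the controls (log2 fold change 0.14, SE 0.02, adjusted p 5.35e-09). HNRNPA1L3, an HNRNPA1-like gene, was also higher (0.25, adjusted p 0.0130), at 13 to 16 CPM in shNC, and not called without shNC replicate 1 or 3 (adjusted p up to 0.104 over the alternatives). How reads that match both genes, or the many processed copies of hnRNP genes, were counted is not given in the sources used here, so the split between such copies is uncertain. HNRNPA2B1, HNRNPD and HNRNPA0 fell by 0.37, 0.48 and 0.27 in shDDX21, and HNRNPA3 by 0.087. The HNRNPA3 call was lost with upper-quartile factors, with the gene-length offset and without shDDX21 replicate 3 (adjusted p up to 0.611 over the alternatives). HNRNPA3 also shares 43.8% of its exon bases with NFE2L2 on the opposite strand. Mouse Hnrnpa1 was at -0.12 (adjusted p 0.0821), Hnrnpd at -0.020 and Hnrnpa3 at -0.098, none of them called, while Hnrnpa2b1 and Hnrnpa0 were called at -0.12 and -0.15 with adjusted p of 0.0470 and 0.0473, which reached 0.478 and 0.298 over the alternatives.

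The 4 members of the hnRNP F/H family, which bind runs of G, were all lower in shDDX21 (median -0.26). In cKO 1 of 4 was lower (median -0.071), which is near the 15.8% of all genes. HNRNPH1 was at 519.6, 514 and 532 CPM in shNC and 412, 413 and 407 in shDDX21 (log2 fold change -0.35, SE 0.022, adjusted p 9.66e-23), and its X-linked relative HNRNPH2 at 114, 119.9 and 124 CPM in shNC and 106, 105 and 106 in shDDX21 (log2 fold change -0.18, SE 0.034, adjusted p 9.39e-06). Both had separate groups, with the larger shift in HNRNPH1. In the mouse the order was the other way: Hnrnph2 was at 217, 219.6 and 232 CPM in WT and 192, 209.8 and 192 in cKO, with cKO below WT in each library (log2 fold change -0.17, SE 0.049, adjusted p 0.0318), and Hnrnph1 at 735, 722 and 766 CPM in WT and 732, 766 and 751 in cKO, overlapping (log2 fold change 0.017, SE 0.038, adjusted p 0.757). The Hnrnph2 call was lost when any WT replicate or cKO replicate 1 or 3 was left out (adjusted p up to 0.217 over the alternatives).

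In the hnRNP L and PTB group, 2 of 4 were lower and 1 higher in shDDX21, and 1 of 4 lower in cKO. The 1 higher in shDDX21 and the 1 lower in cKO are near the shares of all genes (25.3% and 15.8%). PTBP1, which represses exons next to pyrimidine tracts, was at 594, 617 and 584 CPM in shNC and 479, 492 and 482 in shDDX21, all shDDX21 libraries below (log2 fold change -0.30, SE 0.022, adjusted p 5.05e-20). Its paralog PTBP3, enriched in blood cells, was at 279.8, 286 and 284 CPM in shNC and 302, 320.1 and 305 in shDDX21, all above (log2 fold change 0.13, SE 0.025, adjusted p 1.54e-05). Mouse Ptbp1 was at 865, 830.3 and 668 CPM in WT and 778, 546 and 645 in cKO, where WT replicate 3 and cKO replicate 1 crossed (log2 fold change -0.26, SE 0.14, adjusted p 0.185). The Ptbp1 change was -0.13 without cKO replicate 2, and -0.39 and called without cKO replicate 1 (adjusted p 0.0346). Ptbp3 was at 561, 559 and 585 CPM in WT and 532, 594 and 545 in cKO, overlapping (log2 fold change -0.03, SE 0.049, adjusted p 0.667). HNRNPL, which binds CA repeats, fell by 0.46 in human cells. Hnrnpll, known for switching CD45 isoforms in lymphocytes, was lower in the mouse only by call, at 152, 154 and 162 CPM in WT and 135, 140.1 and 135 in cKO (log2 fold change -0.19, SE 0.04, adjusted p 0.00850), and was at 58.2, 55.5 and 56.4 CPM in shNC and 59.6, 53.8 and 61.8 in shDDX21 in the human cells, with overlap (log2 fold change 0.042, SE 0.047, adjusted p 0.474). The mouse call was lost with upper-quartile factors and with total counts (adjusted p 0.0638 and 0.0985), and HNRNPLL was called higher in the human cells with upper-quartile factors (0.11, adjusted p 0.0383).

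The hnRNP U group binds RNA through RGG repeats and includes the scaffold attachment factor HNRNPU. HNRNPU was at 843, 829.8 and 826 CPM in shNC and 567, 558 and 566 in shDDX21, clearly lower in shDDX21 (log2 fold change -0.56, SE 0.021, adjusted p 1.74e-36). In the mouse it was at 1328, 1311 and 1397 CPM in WT and 1278, 1410 and 1327 in cKO, where WT and cKO overlapped and the sign turned in 5 of the 14 alternatives (log2 fold change -0.0073, SE 0.048, adjusted p 0.918). HNRNPUL1 had the reverse pattern. The mouse gene was at 446, 434 and 403 CPM in WT and 384, 334 and 358 in cKO, all cKO libraries below (log2 fold change -0.25, SE 0.062, adjusted p 0.0163), although not called without WT replicate 1 or 2 or cKO replicate 3 (adjusted p up to 0.0643 over the alternatives), and the human gene at 344, 357 and 346 CPM in shNC and 349.5, 351 and 345 in shDDX21, overlapping (log2 fold change -0.00095, SE 0.024, adjusted p 0.979), with a call as higher under upper-quartile factors and the gene-length offset (0.069 and 0.060, adjusted p 0.00990 and 0.0277).

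To compare the experiments directly, the 42 shared members were read against each other. In both experiments 13 were lower, which is 13 of the 17 mouse and 13 of the 34 human decreases and 31.0% of the members, beside 10.4% of all 10319 genes matched by symbol. The count depended on the scaling: with upper-quartile factors 3 were lower in both (7.14%, against 7.49% of all matched genes) and with total counts 2 (4.76%, against 7.22%). With DESeq2 it was 6 (14.3%, against 9.28%) and with a replicate block 7 (16.7%, against 9.94%). None was higher in both (6.43% of all). A further 19 were lower in human cells alone by call. The share of all matched genes in that class was not computed, so the 19 cannot be set against it. Called in opposite directions were 3 (12.8% of all): Rbmx and Srsf12 higher in the mouse and lower in human cells, and SRRM2 lower in the mouse and higher in human cells. Mouse Srsf12 entered the test through the cKO libraries alone.

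The difference between the effects was tested as an interaction over all 12 libraries. Both experiments shared 1 estimate of the spread in this fit, though the biological coefficient of variation was 10.5% in the mouse and 2.23% in the human cells. Its standard errors and p-values can therefore understate the mouse spread. The difference was called for 30 members, beside 56.2% of all matched genes. The mouse change was above the human one in 24 (57.1%, against 35.8% of all matched genes) and below it in 6 (14.3%, against 20.4%). The smallest p-values belonged to HNRNPK, where the difference was 1.29 (SE 0.035, adjusted p 1.44e-10), PRRC2C with 1.21 (SE 0.039, adjusted p 7.20e-10), THRAP3 with 1.25 (SE 0.051, adjusted p 3.83e-09), RBMX with 1.12 (SE 0.057, adjusted p 2.30e-08) and HNRNPU with 0.56 (SE 0.052, adjusted p 3.01e-06). The 6 in which the mouse change lay below were HNRNPA1, HNRNPLL, HNRNPUL1, PTBP3, SRRM2 and SRSF5. Species, developmental stage, cell source and the means of depleting DDX21 all differ between the experiments, and these cannot be told apart.

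**Figure D4:**
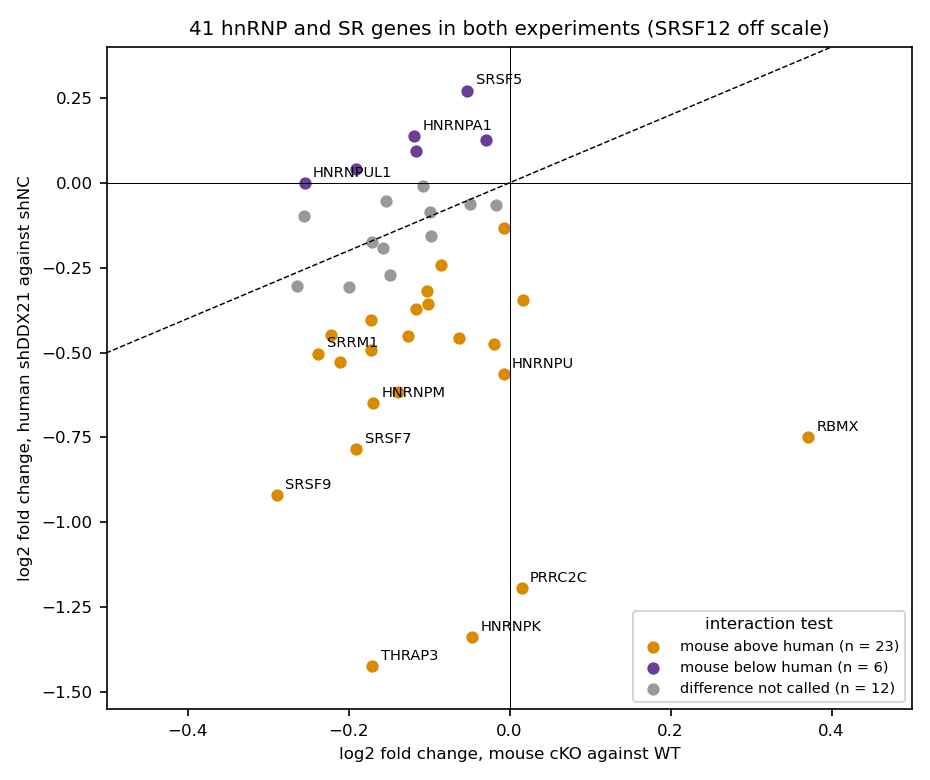
Log2 fold change of 41 shared members in mouse (x axis) and human cells (y axis), with the line of equal change dashed; colour gives the interaction call. HNRNPK, PRRC2C, THRAP3 and RBMX lie far below the line, with differences of 1.12 to 1.29, and Srsf12, at 2.65 and -1.27, is off scale.

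Other splicing genes were read from lists chosen by function. Beside the counts of every list stand 15.8% of all genes lower and 20.7% higher in cKO, and 27.4% and 25.3% in shDDX21. Of 24 proteins of the U1 and U2 particles and the Sm ring, 7 were lower and none higher in cKO (median -0.22). Sf3b4 was at 143 ± 22.6 CPM in WT and 96.2 ± 16.5 in cKO (SD, n = 3 each; -0.57, adjusted p 0.0215 by edgeR). In shDDX21, 11 of the 24 were lower and 5 higher (median -0.044), among them SNRPA1, lower in both experiments (-0.31 and -0.58). Of 20 tri-snRNP and LSM proteins, 6 were lower and 1 higher in cKO (median -0.11), and 14 lower and 2 higher in shDDX21 (median -0.16), with LSM3 from 25.4 to 10.1 CPM (-1.32). Of 13 proteins of the Prp19 complex, 1 was lower in cKO (median -0.066), and 7 lower and 2 higher in shDDX21 (median -0.11). CDC5L was at 94.8 CPM in shNC and 56.9 in shDDX21 (-0.74), and SYF2 was lower in the mouse (-0.22) and higher in the human cells (0.53).

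Of the SR protein kinases and the importer TNPO3, 2 of 8 were lower in cKO (Clk2, -0.24, and Prpf4b, -0.20; list median -0.078), and 3 of 7 tested were lower and 2 higher in shDDX21 (median -0.13). SRPK1, which phosphorylates SR proteins in the cytoplasm, changed by -0.45 and TNPO3, which carries them into the nucleus, by -0.25. Of 36 other splicing regulators, 9 were lower and 4 higher in cKO (median -0.092), and 22 lower and 6 higher in shDDX21 (median -0.16). Celf2 was at 116 CPM in WT and 181 in cKO (0.64), and Mbnl2 also rose (0.59). In human cells MBNL3 (-1.26) and QKI (-0.87) had the smallest p-values of that list together with EWSR1 (-0.45). Of 10 NMD factors, 1 was lower and 1 higher in cKO (median -0.0022), and 4 lower and 3 higher in shDDX21 (median -0.059). All-gene medians were 0.00057 in the mouse and 0.0052 in the human cells. Several list counts lay near or below the shares of all genes, as did those of the NMD factors in cKO. The lists were not matched for abundance.

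**Figure D5:**
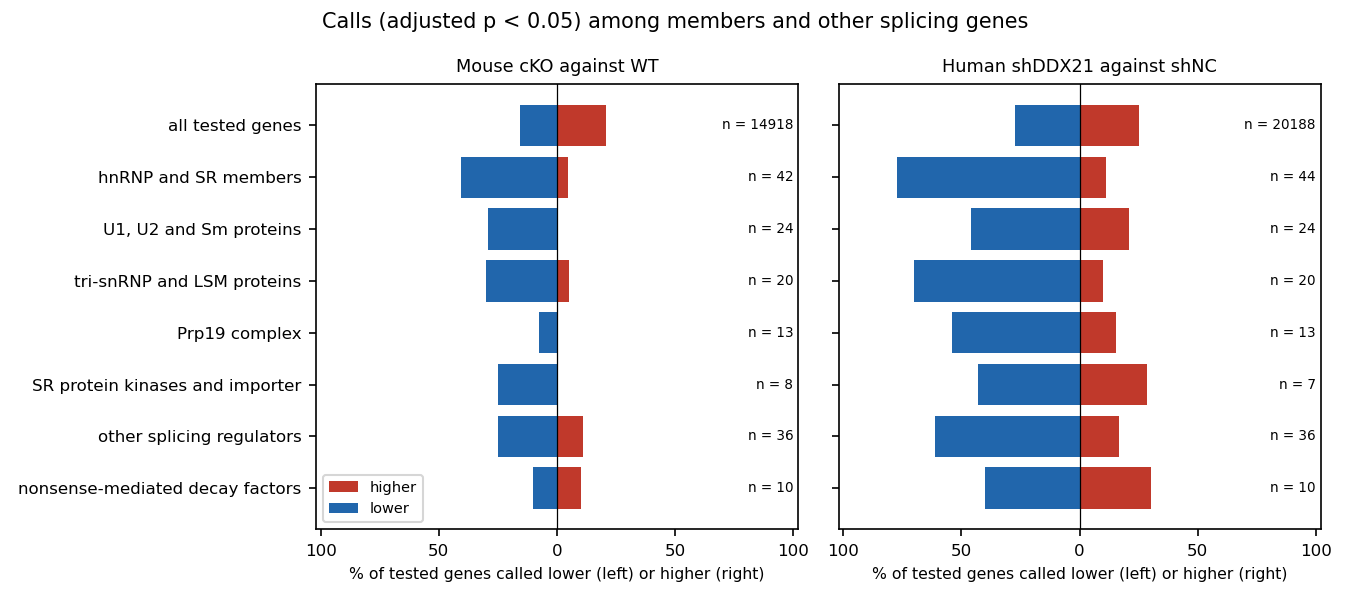
Percent of tested genes called lower (left, blue) and higher (right, red) among all genes, the hnRNP and SR members and 6 lists of other splicing genes, with the number tested. The members have 17 of 42 lower in the mouse and 34 of 44 in the human cells, beside 15.8% and 27.4% of all genes. Of all genes 20.7% were higher in the mouse and 25.3% in the human cells.

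Annotation of the mouse members was read from GENCODE M21, since many of these genes are known to carry poison exons. An NMD transcript was annotated for 29 of 42 members (69.0%), against 29.4% of 12163 tested protein-coding genes, and a retained-intron transcript for 32 (76.2%), against 59.7%. Members also had more annotated transcripts, with a median of 9.5 against 5, so these shares are not independent of each other. Of the 29 with an NMD transcript 12 were lower and 1 higher in cKO (median -0.12), and of the 13 without one 5 were lower and 1 higher (median -0.13). Counts per gene do not separate isoforms, so productive and NMD transcripts were summed. Some exon bases were shared with another gene in 18 mouse and 28 human members, over 10% of the length in 5 and 11. Reads in stretches shared with a gene on the opposite strand cannot be assigned without the strand setting of the counting, which is not given in the sources used here. Stretches shared on the same strand, as by Hnrnpm with Marchf2 (14.7% of its exon bases) and by human HNRNPUL2 (44.3%) and SRSF1 (32.7%) with unnamed genes, could not be assigned by strand either.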

How the data were processed

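The authors deposited raw read counts per gene (whole numbers, with gene positions and exon lengths) and a table of normalized signal per gene. STAR, featureCounts and DESeq2, with mm10 and hg38, are named per the submitters' processing notes; their versions, the strand setting and the treatment of reads matching several genes are not given in the sources used here. The authors' normalized signal was checked to equal the count divided by 1 constant per library, and served to name genes. GENCODE M21 supplied the mouse names it lacked.

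Counts were tested within each experiment with edgeR 4.0.16 in R 4.3.3: filterByExpr, TMM scaling, quasi-likelihood test (glmQLFit, glmQLFTest, two-sided), Benjamini-Hochberg adjustment over all tested genes, called under 0.05. The interaction was fitted over all 12 libraries for genes matched by symbol, with 1 estimate of the spread shared by both experiments. Each standard error was derived from the log2 fold change and the F statistic. The smallest two-sided p of an exact permutation test on 1 value is 0.1 at 3 against 3. The procedure was also run on simulated counts with 1 fixed spread per experiment. Such counts lack the uneven mouse replicates, so they cannot show how the procedure behaves with those. Library totals were 15289510 to 23898130. No column was left unmapped.

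Values per library are given for the 8 largest called changes in each experiment, up to 6 members called in both in the same and in opposite directions, the 5 smallest interaction p-values and 6 fixed pairs of relatives. The other members' values printed were chosen after they were seen. The members, lists and rules were chosen with earlier results of these data known. Alternatives were RLE, upper-quartile and total-count scaling, other count filters, DESeq2 1.42.0, a gene-length offset, a replicate block and leaving out each library.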

Additional observations from a re-analysis of the deposited data

Results flagged for a closer look

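For 30 of the 42 shared members the log2 fold change in the mouse (cKO against WT) differed from that in human cells (shDDX21 against shNC) by the interaction test of edgeR at an adjusted p under 0.05, beside 56.2% of all 10319 matched genes. The mouse value was above the human one by 3.91 in SRSF12, 1.29 in HNRNPK, 1.25 in THRAP3, 1.21 in PRRC2C, 1.12 in RBMX, 0.63 in SRSF9, 0.60 in SRSF7, 0.56 in HNRNPU and 0.48 in HNRNPM. The value of SRSF12 rests on a mouse gene that passed the low-count filter through the cKO libraries alone. Smaller positive differences were 0.48 in SRSF3, 0.46 in HNRNPD, 0.39 in HNRNPL, 0.36 in HNRNPH1, 0.33 in HNRNPF, 0.32 in HNRNPDL, 0.32 in SRSF2 and 0.27 in SRRM1. The smallest were 0.26 in HNRNPA2B1, 0.25 in HNRNPR, 0.23 in SRSF10, 0.23 in SRSF1, 0.21 in HNRNPUL2, 0.16 in HNRNPC and 0.13 in SON. The mouse value was below the human one in 6 members, with differences of -0.32 in SRSF5, -0.26 in HNRNPA1, -0.25 in HNRNPUL1, -0.23 in HNRNPLL, -0.21 in SRRM2 and -0.16 in PTBP3.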

How the results depend on the processing

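Mouse members called lower numbered 17, and 4 with upper-quartile factors, 3 with total counts, 9 with DESeq2 and 5 to 16 without 1 library. The 9 with DESeq2 were 21.4% of members, against 7.97% of 28993 genes. That fit had no low-count filter, so its share is not comparable with those over the 14918 genes of the main fit. They numbered 17 with RLE factors, 12 with at least 10 counts in every library, 10 with a replicate block, 19 without a low-count filter and 20 with the gene-length offset. The members' median minus the all-gene median was -0.118 with TMM, RLE, upper-quartile and total-count scaling alike. These scalings move all genes by nearly the same amount, so that difference could not change between them. It was -0.160 without a low-count filter, -0.142 with the gene-length offset and -0.102 with at least 10 counts in every library. The members called were not always among the 17 (5 to 14 were, without 1 library). Of the 17, 2 (Srrm1 and Srsf2) were called in all 14 alternatives. The 2 mouse increases became 1 when at least 10 counts were required in every library, since Srsf12 was then not tested. The human decreases numbered 30 to 36 and 30 of 34 were called in all alternatives. They were 30 with upper-quartile factors (23.0% of all genes lower) and 36 with total counts (29.6%). The 5 human increases became 8 with upper-quartile factors (31.0% of all genes higher). Members with the mouse change below the human one fell from 6 to 3 with total counts. The cause was not tested. Some named members changed sign. In the mouse these were PRRC2C (-0.00087 with RLE factors, -0.0018 without a low-count filter, -0.11 with the gene-length offset, -0.0081 with DESeq2), HNRNPU (0.019 with upper-quartile factors, 0.058 with total counts, 0.0074 with at least 10 counts, -0.033 to 0.036 without 1 library), HNRNPK (0.019 with total counts), PTBP3 (0.036 with total counts, -0.065 to 0.014 without 1 library) and HNRNPH1 (-2.1e-05 without a filter, -0.0026 with the length offset, -0.0065 with DESeq2, -0.0059 to 0.045 without 1 library). In the human cells these were HNRNPUL1 (0.0031 with RLE factors, 0.069 with upper-quartile factors, 0.0093 with at least 10 counts, 0.060 with the length offset, -0.015 to 0.011 without 1 library), BCLAF1 (0.060 with upper-quartile factors, 0.00077 with at least 10 counts, 0.059 with the length offset, -0.021 to 0.0018 without 1 library) and TRA2B (0.014 with upper-quartile factors, 0.012 with the length offset). Of the other mouse members, HNRNPD, HNRNPH3, HNRNPL, SON, SRSF5 and SRSF11 also changed sign, without a call either way except SON.

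The labels do not say whether the replicate numbers pair the libraries. Same-numbered libraries' deviations from their group mean correlated by 0.32, -0.18 and 0.013 in the mouse and near 0 in the human cells. With 3 libraries per group the deviations of a group sum to 0, so these values cannot decide whether a litter or day was shared. A fit with a replicate block called 10 mouse members lower and 2 higher (15.8% and 18.8% of all genes), and 34 lower and 5 higher in the human cells (27.3% and 25.2%). Not every library correlated best with its own number. All genes called numbered 3717 to 5671 in the mouse and 9234 to 10890 in the human experiment over the alternatives. Depth limits only SRSF12 and, less so, HNRNPA1L3.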
